A study of Mus musculus with 18 samples.

Results

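The heat shock and chaperone genes described here are Hspa1a, Hspa1b, Hsph1, Dnajb1, Hspa8, Hsp90aa1, Hsp90ab1, Hspb1, Hspd1 and Hspe1. They were taken by gene symbol from a table of 19320 gene names, with earlier results of these data known. All 10 were among the 12905 genes that reached 1 RPKM (mapped reads scaled to transcript length and library total) in at least 3 libraries and were tested. In mouse spleen most of these transcripts rose and fell together from library to library, most steeply the inducible Hspa1a and Hspa1b, with Hspb1 apart from the mitochondrial Hspd1 (r = 0.179) and Hspe1 (r = 0.099), and much of this spread lay inside the groups. Without weights on the libraries, no member passed the adjusted threshold in any comparison of groups.

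Whole spleens of ICR mice aged 10 weeks, all male by the study's methods, were sequenced as poly(A) RNA in 18 libraries, 3 for each of 6 groups. Con mice were controls, A10 mice received AOS (alginate oligosaccharide, a seaweed sugar) at 10 mg/kg, STZ mice received streptozotocin, a toxin of pancreatic beta cells used to model type 1 diabetes, and STZ-A10 mice received streptozotocin and AOS at 10 mg/kg. How AOS was given to these mice is not given in the sources used here. A10-FMT and Con-FMT mice received streptozotocin and then, by mouth, a fecal microbiota transplant of pooled small intestinal content from donors that had or had not been given AOS at 10 mg/kg, so that every group apart from Con and A10 carried streptozotocin and each transplant group shared its donor material. The labels number the libraries of a group 1 to 3 and do not say what a number marks, so p-values measure the spread between these libraries.

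Heat shock proteins are molecular chaperones that bind unfolded proteins, hold them soluble and help them fold. The inducible genes are kept low in unstressed tissue and are switched on by the transcription factor HSF1, which binds heat shock elements, short inverted repeats of GAA and TTC in their promoters, when cells are warmed, starved of oxygen or otherwise loaded with unfolded protein. HSP70 proteins work in an ATP cycle that J-domain proteins start and nucleotide exchange factors end, HSP90 proteins take over clients such as kinases and steroid receptors with the help of co-chaperones, and HSP60 with its HSP10 lid folds proteins inside mitochondria.

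Promoter sequence was read from RefSeq on build GRCm38.p6 as the 250 bases before each annotated start site. Of the 10 members 7 had at least 1 such window (Hspa1a, Hspa1b, Hsph1, Dnajb1, Hspb1, Hspd1 and Hspe1). The promoter set used here held no entry for Hspa8, Hsp90aa1 and Hsp90ab1, so these were not searched. The windows were searched for inverted pairs of the heat shock element, GAANNTTC and TTCNNGAA, each of which reads the same on both strands, and for the triplets GAANNTTCNNGAA and TTCNNGAANNTTC, which contain both pairs. A pair was present in a window of 6 of these 7 members (all but Dnajb1), against 12.8% of the 32851 windows of all genes, and a triplet in 2 (Hspd1 and Hspe1), against 0.466%. The member counts are per gene, over 10 windows of the 7 members, while the shares of all genes are per window. The matches of Hspa1a and Hspa1b have the same letters, and those of Hspd1 and Hspe1 are the same site. The Hsph1 match lies before its RefSeq start sites but inside the gene as GENCODE annotates it (149614287 to 149636376 on chromosome 5, minus strand). A match is a description of the letters in the window and not evidence of binding. The short stretches below show each match in capitals with the bases on either side, on the strand of the gene, because they are the letters that the search found in common.
Hspa1a, chr17:34972245-34972268, minus strand: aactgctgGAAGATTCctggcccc
Hspa1b, chr17:34959327-34959350, minus strand: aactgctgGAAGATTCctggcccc
Hsph1, chr5:149636354-149636377, minus strand: tagaatctTTCTCGAAggctcgag
Hspb1, chr5:135887794-135887837, plus strand: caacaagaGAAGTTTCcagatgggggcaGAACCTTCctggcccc

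Hspa1a and Hspa1b encode the inducible HSP70 and lie side by side on chromosome 17 in the same orientation, at 34969190 to 34972156 and 34956436 to 34959238 on the minus strand (GENCODE, GRCm38). Their 250-base windows were identical at 247 positions (98.8%). Counted from 1 at the 5′ end of the window, with the Hspa1a base named before the position and the Hspa1b base after it, the differences were C44T, T47C and T249G. Both windows are printed, with the GAANNTTC pair in capitals, to show how little sequence separates the copies.
Hspa1a, chr17:34972157-34972406, minus strand: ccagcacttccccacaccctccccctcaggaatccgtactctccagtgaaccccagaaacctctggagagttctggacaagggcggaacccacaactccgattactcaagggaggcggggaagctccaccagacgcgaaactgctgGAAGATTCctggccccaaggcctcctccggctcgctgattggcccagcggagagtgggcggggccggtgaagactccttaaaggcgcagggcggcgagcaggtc
Hspa1b, chr17:34959239-34959488, minus strand: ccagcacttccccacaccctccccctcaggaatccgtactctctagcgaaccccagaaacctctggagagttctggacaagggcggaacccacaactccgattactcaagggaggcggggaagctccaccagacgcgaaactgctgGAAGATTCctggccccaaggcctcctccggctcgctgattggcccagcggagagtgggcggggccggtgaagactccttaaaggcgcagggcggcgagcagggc

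Hspd1, which encodes mitochondrial HSP60, and Hspe1, which encodes its partner HSP10, are transcribed away from each other from the same stretch of chromosome 1. The match lies in the windows of both, inside the first exon that GENCODE annotates for an alternative Hspd1 transcript, and holds both kinds of pair and both kinds of triplet in a run of overlapping letters. It is printed on each strand, with the run in capitals, to show it as each gene has it.
Hspd1, chr1:55088053-55088082, minus strand: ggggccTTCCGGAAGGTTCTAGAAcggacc
Hspe1, chr1:55088053-55088082, plus strand: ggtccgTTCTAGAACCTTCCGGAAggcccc

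The table holds RPKM and no read numbers, so the depth is unknown. In each library 11532 to 12893 genes reached 1 RPKM. Libraries differed in more than their group. Globin transcripts made up 10.4% to 42.7% of all RPKM. A10-FMT replicate 3 had the lowest summed RPKM of the 10 B cell markers (611, against 1505 to 2862 in the other libraries) and of the 10 T cell markers (97.9, against 238 to 517), and A10-FMT replicate 2 had 17442 summed RPKM of the 12 exocrine pancreas markers, against 21.7 to 7429 elsewhere. Con replicate 1 had 15049 summed RPKM of the 10 neutrophil markers, against 393 to 4108 in the other libraries, and Con replicate 2 had 306 of the 10 testis germ cell markers, against 1.23 to 36.8. Since tissue was sequenced in bulk, fewer cells of a type and less RNA per cell cannot be told apart. Levels are compared between genes in RPKM, which is per length.

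Hspa1a RPKM was 6.48, 21.0 and 49.8 in Con, 5.65, 5.85 and 11.3 in A10, 0.41, 1.82 and 31.8 in STZ, 1.5, 1.52 and 3.56 in STZ-A10, 23.8, 26.3 and 4.51 in A10-FMT and 4.41, 11.9 and 29.0 in Con-FMT. Its highest library, Con replicate 3, was 122-fold above its lowest, STZ replicate 1, and the 3 STZ libraries alone spanned 77.6-fold. The STZ libraries overlapped every other group, while all STZ-A10 libraries lay below all libraries of Con, A10, A10-FMT and Con-FMT.

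Hspa1b RPKM was 15.4, 51.3 and 140.5 in Con, 14.6, 17.1 and 28.7 in A10, 1.30, 4.68 and 79.1 in STZ, 3.61, 3.88 and 7.63 in STZ-A10, 58.4, 65.2 and 10.7 in A10-FMT and 10.2, 27.6 and 71.9 in Con-FMT. The groups overlapped as for Hspa1a, and Hspa1b stood 2.14-fold to 3.17-fold above Hspa1a in every library (median 2.48). The 2 rows were not fully separate measurements, since 58.8% of the 50-base windows of the Hspa1a transcript also occur in Hspa1b and 62.3% of those of Hspa1b in Hspa1a. With their RPKM summed and tested as 1 gene, the STZ-Con log2 fold change was -2.38 and no comparison was called.

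Hsph1 encodes HSP110, which resets HSP70 by nucleotide exchange. Its RPKM was 30.8, 83.9 and 134.7 in Con, 47.2, 58.1 and 81.7 in A10, 18.3, 29.3 and 151.7 in STZ, 25.3, 18.1 and 57.8 in STZ-A10, 94.4, 56.6 and 78.1 in A10-FMT and 40.6, 49.0 and 102.0 in Con-FMT. STZ replicate 3 was the highest library of the series and STZ-A10 replicate 2 and STZ replicate 1 the lowest, and the groups overlapped in all 7 comparisons made.

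Dnajb1 encodes the J-domain protein HSP40 that delivers clients to HSP70. Its RPKM was 35.7, 75.1 and 117 in Con, 44.9, 51.8 and 61.1 in A10, 19.9, 38.8 and 87.0 in STZ, 24.3, 32.7 and 42.4 in STZ-A10, 64.9, 71.8 and 61.5 in A10-FMT and 39.2, 56.4 and 87.3 in Con-FMT. The 3 A10-FMT libraries were close together, within 1.17-fold, while the 3 STZ libraries spanned 4.36-fold. All STZ-A10 libraries lay below all A10 libraries.

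Hspa8, the constitutive HSP70 of the cytosol, was the most abundant member at a mean of 1207 RPKM. It measured 784, 1351 and 1926 in Con, 1162, 1157 and 1397 in A10, 734, 989 and 1681 in STZ, 881, 858 and 1046 in STZ-A10, 1293, 1233 and 1534 in A10-FMT and 1076, 1135 and 1491 RPKM in Con-FMT. Con replicate 1 and STZ replicate 1 were the lowest libraries and Con replicate 3 the highest, a 2.63-fold range.

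Hsp90aa1, the stress-inducible cytosolic HSP90, measured 405, 581 and 711 RPKM in Con, 391, 472 and 511 in A10, 272, 361 and 709 in STZ, 249.8, 278 and 342 in STZ-A10, 573, 482 and 707 in A10-FMT and 345, 422 and 612 in Con-FMT. The STZ-A10 libraries lay below all Con, A10, A10-FMT and Con-FMT libraries. Hsp90ab1, the constitutive HSP90, measured 551, 857 and 1072 RPKM in Con, 742, 773 and 915 in A10, 679.6, 657 and 924 in STZ, 682, 598 and 633 in STZ-A10, 687, 680.4 and 639 in A10-FMT and 706, 712 and 874 in Con-FMT. Its range was 1.95-fold, and both STZ-A10 below A10 and A10-FMT below Con-FMT were without overlap.

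Hspb1 encodes the small heat shock protein HSP25, which holds unfolded proteins without using ATP. Its RPKM was 17.1, 31.5 and 38.6 in Con, 15.9, 21.5 and 20.7 in A10, 12.9, 22.3 and 44.9 in STZ, 27.8, 11.7 and 14.7 in STZ-A10, 33.0, 28.7 and 10.1 in A10-FMT and 23.6, 29.1 and 22.4 in Con-FMT. All groups overlapped in the 7 comparisons, and its lowest library was A10-FMT replicate 3, which held the highest Hspd1 and Hspe1.

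Hspd1 measured 118, 144 and 169 RPKM in Con, 119, 127 and 151 in A10, 118, 118 and 190.2 in STZ, 92.0, 97.0 and 110.2 in STZ-A10, 146, 120.2 and 222 in A10-FMT and 106, 114 and 159 in Con-FMT. The 3 STZ-A10 libraries were below all A10 and all STZ libraries. Hspe1 measured 201, 246 and 223 RPKM in Con, 219.8, 223 and 246 in A10, 248, 173 and 246 in STZ, 176, 165 and 189 in STZ-A10, 266, 210.2 and 272 in A10-FMT and 181, 186 and 225 in Con-FMT. It varied least of the members, 1.65-fold over the series, and STZ-A10 was again below A10 without overlap.

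**Figure D1:**
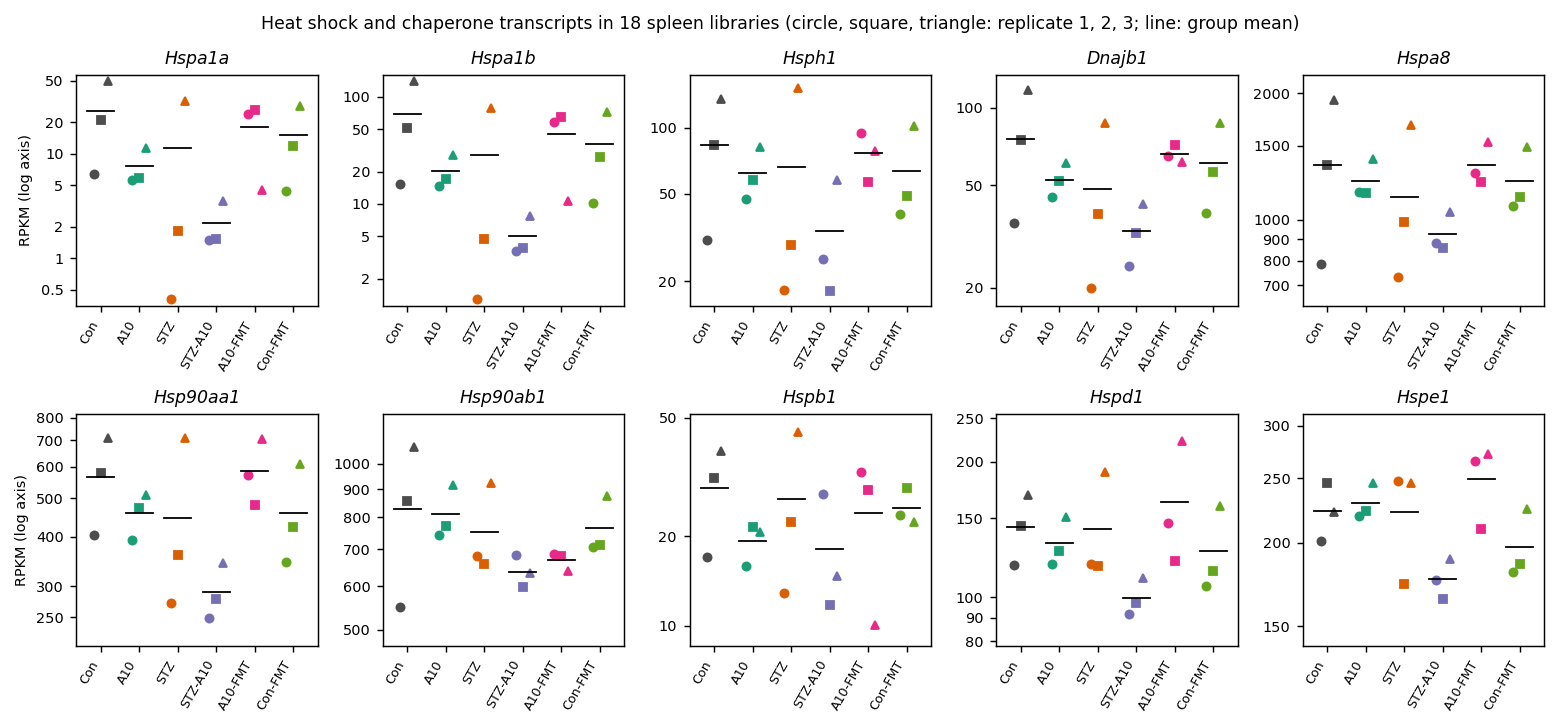
RPKM of each of the 10 members on a log axis in the 6 groups, with 1 symbol per library (circle, square and triangle for replicates 1, 2 and 3) and a line at the group mean. Hspa1a and Hspa1b span 122-fold and 108-fold, and the 3 STZ libraries alone cover most of that range.

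The order of the group means was shared in part. STZ-A10 had the lowest mean of the 6 groups for all 10 members, against 12.1% of all genes tested, while Con had the highest for 7 and A10-FMT for 3 (Hsp90aa1, Hspd1 and Hspe1). Its place below STZ rested on STZ replicate 3. Without that library, 5 members had a lower mean log2 level in STZ-A10 than in STZ and 5 a higher one. The members also varied together (median r 0.773 over pairs with group means removed), so these are not 10 separate observations. Limma's F test over the 6 groups called none of the 10 members, with 0.449% of all genes called, and the smallest adjusted p was 0.225 for Hspe1 followed by 0.228 for Hsp90aa1. At an unadjusted p under 0.05 the F test also held 0 of the members, against 22.6% of all genes. With limma's array weights, which give discordant libraries less weight, it called 9 of the 10, but also 77.3% of all genes.

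The spread inside groups set Hspa1a, Hspa1b and Hsph1 apart from most genes. The within-group SD on the log2(RPKM + 1) scale was 1.52 for Hspa1b, rank 37 of 12905 genes, 1.37 for Hspa1a, rank 46, and 0.92 for Hsph1, rank 113, against a median of 0.204 over all genes. Dnajb1 and Hspb1 followed at 0.62 each, ranks 264 and 265. The stress-inducible Hsp90aa1, at 0.41, was close to the constitutive Hspa8, at 0.39, and 8.99% of all genes had a larger SD than Hsp90aa1. Nearer to other genes were Hspd1 at 0.31, Hsp90ab1 at 0.25 and Hspe1 at 0.18, the last below the median of all genes.

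Streptozotocin without AOS was compared with the control. All 10 members had a lower mean log2 level in STZ than in Con, as 52.4% of all genes did (9 members with quantile normalization), from -2.29 for Hspa1b (SE 1.10) to -0.02 for Hspe1 (SE 0.146), with a median log2 fold change of -0.33 against -0.01 over all genes. None passed the adjusted threshold in limma, where 0.163% of all genes were called, and none at an unadjusted p under 0.05, which 11.1% of all genes reached. The libraries of the 2 groups overlapped for every member, whereas 12.8% of all genes did not overlap. For Hspa1b the 95% interval ran from -4.62 to 0.05. The count of lower members dropped to 6 without Con replicate 3, with a median of -0.12, and to 7 without STZ replicate 1, with a median of -0.09, while the median was -0.62 without Con replicate 1 and -0.74 without STZ replicate 3. With array weights Hspa1a, Hspa1b and Hspe1 were called lower, and 28.8% of all genes were called in either direction. Markers of other cells were lower in STZ than in Con at an unadjusted p under 0.05 in limma for 10 of 10 neutrophil markers (median log2 fold change -2.22), 9 of 10 hepatocyte markers (-2.78), 7 of 7 adipocyte markers tested (-1.67) and 4 of 4 germ cell markers tested (-2.73). Going the other way, 11 of 12 exocrine pancreas markers were higher in STZ, 5 at that level (median 3.12). So were 9 of 10 red pulp macrophage markers, 6 at that level (median 0.38). Summed RPKM in STZ and Con was 393 to 1685 and 786 to 15049 for neutrophil, 7.40 to 9.45 and 25.2 to 302 for hepatocyte, 9.04 to 28.4 and 31.7 to 168 for adipocyte and 3.59 to 9.71 and 19.6 to 306 for germ cell markers, overlapping only for neutrophils, and the part of these lists in the result was not tested.

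AOS alone was compared with the control, against the same Con libraries. Of the 10 members 8 were lower in A10, as were 37.5% of all genes (10 members with median centring or scaling without the globin genes), with a median log2 fold change of -0.24 against 0.05 over all genes, a lowest value of -1.30 for Hspa1a (SE 0.994) and a highest of 0.04 for Hspe1. None was called, with 0.00775% of all genes called, and none had an unadjusted p under 0.05, against 5.25% of all genes, or groups without overlap, against 16.5%. Without Con replicate 3 only 4 members were lower and the median was 0.01, and it was -0.65 without Con replicate 1, -0.39 without A10 replicate 3 and -0.10 without A10 replicate 1, with 7 lower. All 10 neutrophil markers and all 4 germ cell markers tested were also lower in A10 at an unadjusted p under 0.05 in limma (median log2 fold changes -2.02 and -3.19). The 2 groups overlapped for every neutrophil marker, with summed RPKM of 15049, 4108 and 786 in Con and 555 to 1416 in A10. All 11 erythroid markers tested were lower, 5 without overlap (median -0.63), while all 10 T cell markers were higher, 5 without overlap (median 0.36). Of the hepatocyte markers 8 of 10 were lower (median -1.25). All 7 adipocyte markers tested (0.82) and all 10 B cell markers (0.15) were higher. The part of these lists in the result was not tested. With array weights Hspb1 was called lower, along with 10.3% of all genes in either direction.

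Streptozotocin with AOS was compared with AOS alone. All 10 members were lower in STZ-A10 than in A10, against 57.5% of all genes, with log2 fold changes from -1.81 for Hspa1b (SE 1.10) to -0.17 for Hspb1 (SE 0.455) and a median of -0.54 against -0.03 over all genes. In 8 of the 10, all but Hsph1 and Hspb1, every STZ-A10 library lay below every A10 library, where 14.9% of all genes did so. Hsp90aa1 fell short of the adjusted threshold at a log2 fold change of -0.66 (SE 0.305, unadjusted p 0.0463, adjusted p 0.475 in limma), and Hspe1 at -0.38 (SE 0.146, unadjusted p 0.0201, adjusted p 0.353 in limma). These 2 were the only members at an unadjusted p under 0.05, a level that 6.42% of all genes reached in this direction and 10.2% in either, and no member was called at the adjusted threshold, with 0.0542% of all genes called. With array weights Hspe1 was called lower, along with 13.9% of all genes in either direction. Exocrine pancreas markers moved with this comparison: the summed RPKM of all 12 was 4713 to 7429 in STZ-A10 and 40.9 to 570.1 in A10. All 10 red pulp macrophage markers summed to 788 to 1181 in STZ-A10 and 701 to 807 in A10. Lists that lay lower in STZ-A10, as the members did, were the adipocyte markers (7 of 7 tested at an unadjusted p under 0.05 in limma, median log2 fold change -1.50), the T cell markers (10 of 10 below 0, 5 without overlap, median -0.54) and the hepatocyte markers (10 of 10 below 0, 4 without overlap, median -1.48). Their summed RPKM did not overlap, at 28.9 to 78.2 in STZ-A10 and 90.4 to 266 in A10 for adipocyte, 266 to 434 and 467 to 517 for T cell and 7.59 to 21.4 and 24.8 to 94.5 for hepatocyte markers, and the part of any of these lists in the result was not tested.

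STZ-A10 was also compared with STZ. All 10 members were again lower in STZ-A10, against 41.3% of all genes, with a median log2 fold change of -0.46 against 0.03 over all genes, but this rested on STZ replicate 3: without it 5 members were lower and 5 higher, the median was 0.06, and Hspa1b went from -0.81 to 0.68. The median was -0.82 without STZ replicate 1 and -0.30 without STZ-A10 replicate 2, with all 10 lower in both. Hspe1 was the only member at an unadjusted p under 0.05, with a log2 fold change of -0.31 (SE 0.146, unadjusted p 0.0482, adjusted p 0.996 in limma), where 1.65% of all genes reached that level in this direction and 2.93% in either. Only Hspd1 had groups without overlap, against 4.71% of all genes in this direction, and 0.00775% of all genes were called at the adjusted threshold. Of the exocrine pancreas markers 11 of 12 were higher in STZ-A10, 7 without overlap (median log2 fold change 1.38). Their summed RPKM was 4713 to 7429 in STZ-A10 and 1048 to 4356 in STZ. All 7 adipocyte markers tested were higher (median 0.66), while 9 of 11 erythroid markers were lower, 3 without overlap (median -0.40). The part of these lists in the result was not tested.

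Each transplant was compared with STZ, and these comparisons and the previous one share the STZ libraries. In A10-FMT 8 of the 10 members were higher than in STZ, against 27.7% of all genes, from -0.16 for Hsp90ab1 to 1.82 for Hspa1b (SE 1.10), with a median log2 fold change of 0.41. The median of all genes was itself shifted to -0.15 in this comparison, and 9 members were higher with quantile normalization and all 10, with a median of 0.58, when each library was centred on its median. Without STZ replicate 1 the median was 0.17, with 8 members higher, and without STZ replicate 3 it was 0.77, with 9 higher. None was called, with 0.00775% of all genes called, and none had an unadjusted p under 0.05, against 17.2% of all genes, or groups without overlap, against 14.4%. With array weights Hspa1a, Hspa1b and Hspe1 were called higher, along with 16.6% of all genes in either direction. In A10-FMT 9 of 10 hepatocyte markers were higher without overlap (median log2 fold change 3.08, summed RPKM 113 to 388 against 7.40 to 9.45 in STZ), 5 of 7 adipocyte markers were higher without overlap (median 1.18, 37.7 to 100.3 against 9.04 to 28.4) and 7 of 10 red pulp macrophage markers were lower without overlap (median -0.49, 545 to 695 against 852 to 896). Also higher were 10 of 11 erythroid markers tested (median 0.76, 1 without overlap), all 12 proliferation genes (0.39) and all 10 neutrophil markers (0.60). All 10 T cell markers (-0.45) and 9 of 10 B cell markers (-0.47) were lower, and the part of these lists in the result was not tested. In Con-FMT 8 members were higher than in STZ, against 50.4% of all genes, with a median of 0.16 against 0.00 over all genes and a highest value of 1.49 for Hspa1b (SE 1.10). None was called, with 0.00775% of all genes called, and none had an unadjusted p under 0.05, against 5.24% of all genes, or groups without overlap, against 13.2%. Without STZ replicate 1 only 2 members were higher, with a median of -0.08, and the median was 0.09 without STZ replicate 2 (7 higher), 0.52 without STZ replicate 3 (9 higher), 0.29 without Con-FMT replicate 1 (8 higher) and 0.04 without Con-FMT replicate 3 (6 higher). Of the T cell markers 8 of 10 and of the hepatocyte markers 4 of 10 were higher in Con-FMT without overlap. Of the red pulp macrophage markers 8 of 10 were lower, 6 of them without overlap, and the part of these lists in the result was not tested.

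The 2 transplants were compared with each other. Of the 10 members 8 were higher in A10-FMT than in Con-FMT, against 29.0% of all genes, with a median log2 fold change of 0.30, while the median of all genes was -0.17. The same count was higher under the other scalings. Hspe1 was at 0.33 (SE 0.146, unadjusted p 0.0373, adjusted p 0.207 in limma), a level 3.49% of all genes reached in this direction, and Hsp90aa1 had the largest difference, 0.38 (SE 0.305). Hsp90ab1 was the only member without overlap, lower in A10-FMT, against 23.9% of all genes in this direction. No gene of the 12905 was called at the adjusted threshold (0.00%), although 23.6% had an unadjusted p under 0.05. Without Con-FMT replicate 1, 5 members were higher and 5 lower with a median of -0.02, and the median was 0.50 without Con-FMT replicate 3 (8 higher) and 0.17 without A10-FMT replicate 1 or 2 (6 higher in each). Without A10-FMT replicate 3, the library low in B and T cell markers, 9 were higher with a median of 0.25. With array weights Hsp90aa1, Hspd1 and Hspe1 were called higher, along with 47.0% of all genes in either direction. Of the hepatocyte markers 8 of 10 were higher in A10-FMT without overlap (median log2 fold change 2.27). All 11 erythroid markers tested (median 0.65, 5 without overlap) and all 12 proliferation genes (0.495, 4 without overlap) were higher too. All 10 T cell markers (-0.96, 8 without overlap) and all 10 B cell markers (-0.77, 5 without overlap) were lower, and the part of these lists in the result was not tested.

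The effect of streptozotocin with AOS was set against its effect without AOS as an interaction. Of the members 4 had a value above 0 and 6 below, where 53.8% of all genes were, from -0.36 for Hspd1 to 0.57 for Hspa1a (SE 1.41). None was called, and 0.00% of all genes were called, with 2.86% at an unadjusted p under 0.05 and none of the members among them. The Hspa1a value turned to -0.09 without Con replicate 3 and to -0.35 without STZ replicate 1.

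**Figure D2:**
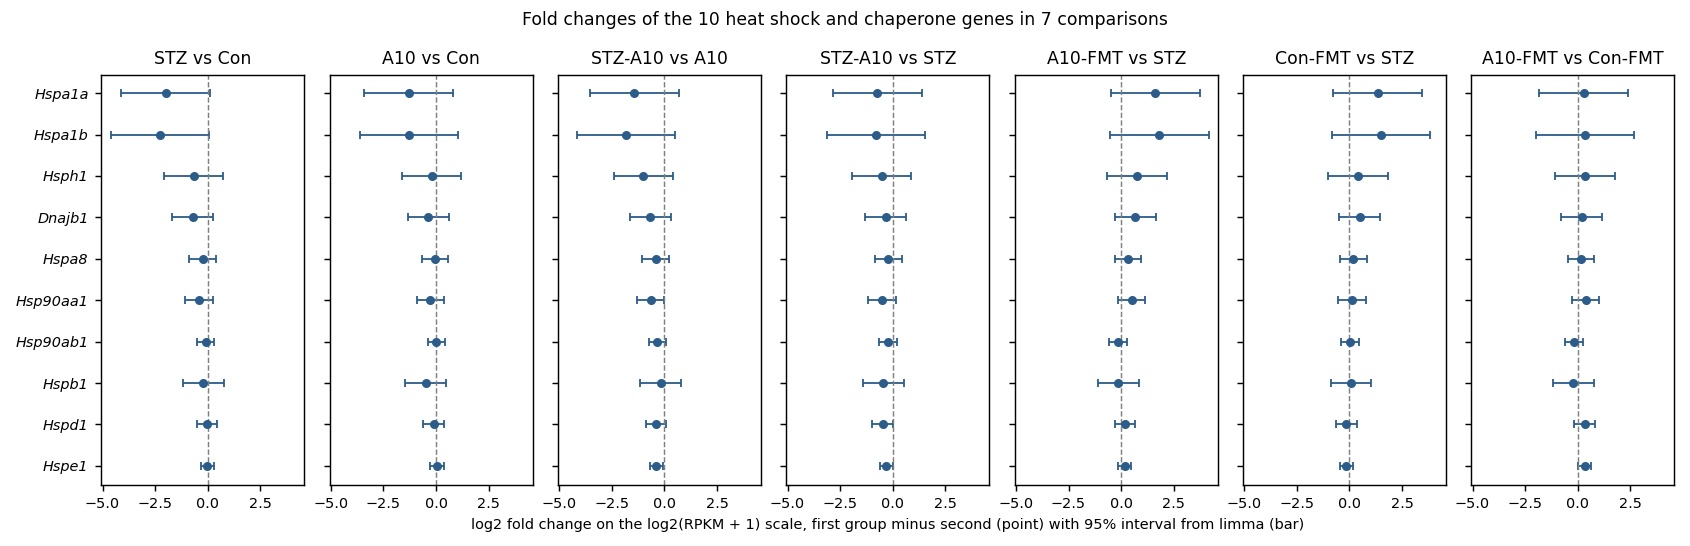
Log2 fold change of each member in the 7 comparisons, the group named before "vs" minus the group after it, with its 95% interval from limma. The intervals of Hspa1a and Hspa1b are the widest, running from -4.62 to 0.05 for Hspa1b in STZ against Con, and those of Hsp90aa1 and Hspe1 in STZ-A10 against A10 lie below 0 before adjustment.

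The members were then compared with each other over the 18 libraries on the log2(RPKM + 1) scale, in 5 pairs of shared family, pathway or promoter. Hsph1 followed Hspa1a with Pearson's r = 0.877 and Spearman's rho = 0.849 (n = 18, p = 1e-05 for each in 100000 permutations, the smallest these can give, adjusted p 1.67e-05 over the 5 pairs), and r was 0.822 without the 2 libraries farthest from the median of Hspa1a. With the group means removed r was 0.859 (permutation p = 0.0017, adjusted 0.00285). Dnajb1 followed Hsph1 with r = 0.927 and rho = 0.932 (n = 18, permutation p = 1e-05 for each, adjusted 1.67e-05), 0.918 without the 2 farthest libraries and 0.911 within groups (permutation p = 0.001, adjusted 0.00252).

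The 2 cytosolic HSP90 genes were more loosely tied. Hsp90aa1 and Hsp90ab1 had r = 0.614 (permutation p = 0.0065, adjusted 0.00651) and rho = 0.616 (permutation p = 0.0073, adjusted 0.00732), with r = 0.652 without the 2 farthest libraries and 0.729 within groups (permutation p = 0.011, adjusted 0.0134). In A10-FMT, Hsp90aa1 stood at 482 to 707 RPKM while Hsp90ab1 stood at 639 to 687.

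Hspd1 and Hspe1, the pair with the shared element printed above, had r = 0.799 (permutation p = 7e-05, adjusted 8.75e-05) and rho = 0.829 (permutation p = 6e-05, adjusted 7.5e-05). The value was r = 0.760 without the 2 farthest libraries and 0.686 within groups (permutation p = 0.039, adjusted 0.0393). The annotated genes overlap on opposite strands, from 55088132 to 55088243 on chromosome 1, and counting by strand was not stated, so reads there could go to either gene. For Hspa1a and Hspa1b r was 0.998 and rho 0.996 (permutation p = 1e-05 for each, adjusted 1.67e-05), 0.998 without the 2 farthest libraries and 0.999 within groups (permutation p = 5e-05, adjusted 0.00025), for rows that share most of their 50-base windows.

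**Figure D3:**
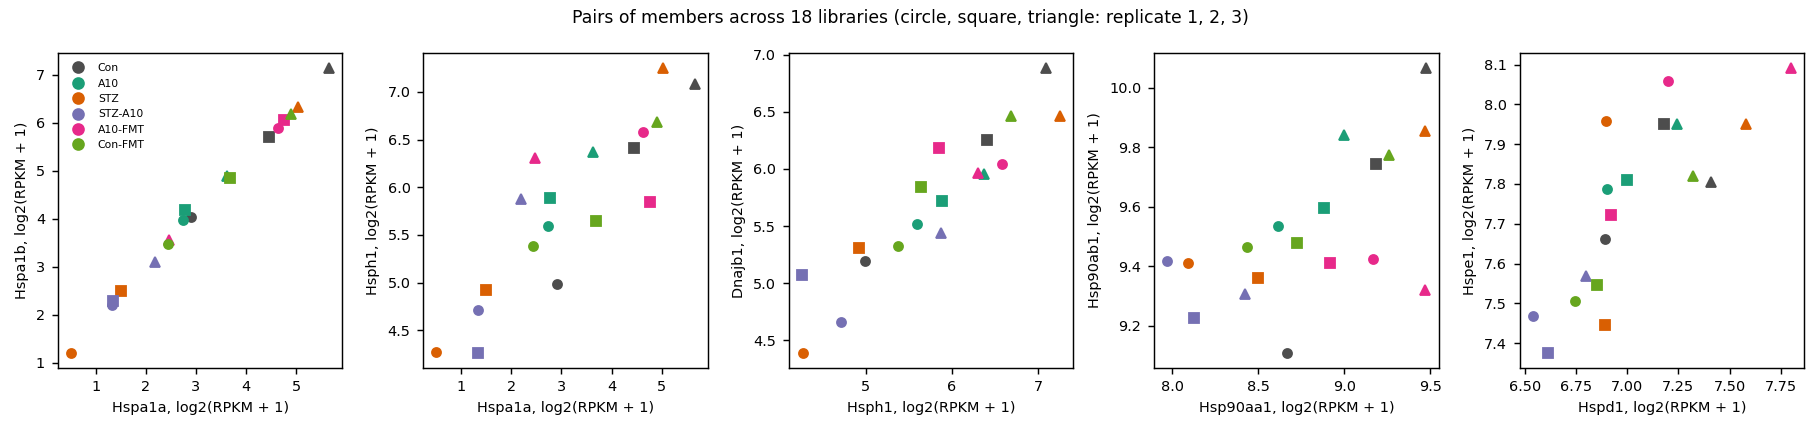
Log2(RPKM + 1) of 5 pairs of members in 18 libraries, coloured by group, with circle, square and triangle for replicates 1, 2 and 3. Points follow a line in each panel, with r from 0.614 for Hsp90aa1 and Hsp90ab1 to 0.998 for Hspa1a and Hspa1b.

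Over all 45 pairs of members r was above 0 in every pair, from 0.099 for Hspb1 with Hspe1 to 0.998, with a median of 0.713 and 38 pairs above 0.5. With group means removed 44 of the 45 were above 0, the lowest was -0.004 for Hspb1 with Hspe1, and the median was 0.773. Against the mean of the other 9 members, each standardized over the libraries, Hsph1 had the highest r, 0.959, followed by 0.938 for Dnajb1, 0.933 for Hsp90aa1, 0.929 for Hspa8, 0.907 for Hspa1b and 0.903 for Hspa1a. The lower ones were 0.763 for Hspd1, 0.740 for Hsp90ab1, 0.571 for Hspe1 and 0.552 for Hspb1. These are descriptions over 18 libraries that share depth, tissue makeup and the scaling to the library total.

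The mean standardized level of the 10 members put the libraries in an order that crossed the groups. It was highest in Con replicate 3 (1.48 SD units), STZ replicate 3 (1.36) and Con-FMT replicate 3 (0.86) and lowest in STZ-A10 replicate 2 (-1.33), STZ replicate 1 (-1.17) and STZ-A10 replicate 1 (-1.07). STZ-A10 was the only group with all 3 libraries below 0, and A10-FMT the only group with all 3 above 0, from 0.31 to 0.69. A10-FMT replicate 3 was mixed in itself, with Hspd1 (222 RPKM) and Hspe1 (272) at their highest of the series while Hspb1 (10.1) was at its lowest.

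The 5 genes outside the members that followed this mean most closely, of 9352 with a mean of at least 5 RPKM, were Stip1 (r = 0.98), Cacybp (0.98), Ptges3 (0.97), Dnaja1 (0.96) and Ahsa2 (0.96), each over 18 libraries. Stip1 encodes HOP, the adaptor that hands clients from HSP70 to HSP90, Ptges3 encodes the HSP90 co-chaperone p23, Dnaja1 encodes a J-domain protein of HSP70, and Ahsa2 is related to the HSP90 activator encoded by Ahsa1. With group means removed the 5 values were 0.96 to 0.98. Stip1 RPKM was 80.5, 130.2 and 164 in Con, 70.6, 87.0 and 172 in STZ and 75.7, 67.1 and 95.6 in STZ-A10, the same order of libraries as for Hsph1 in Con and STZ. All 5 had a promoter window, and 1 of them, Dnaja1, held a pair (GAANNTTC) in a window.

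**Figure D4:**
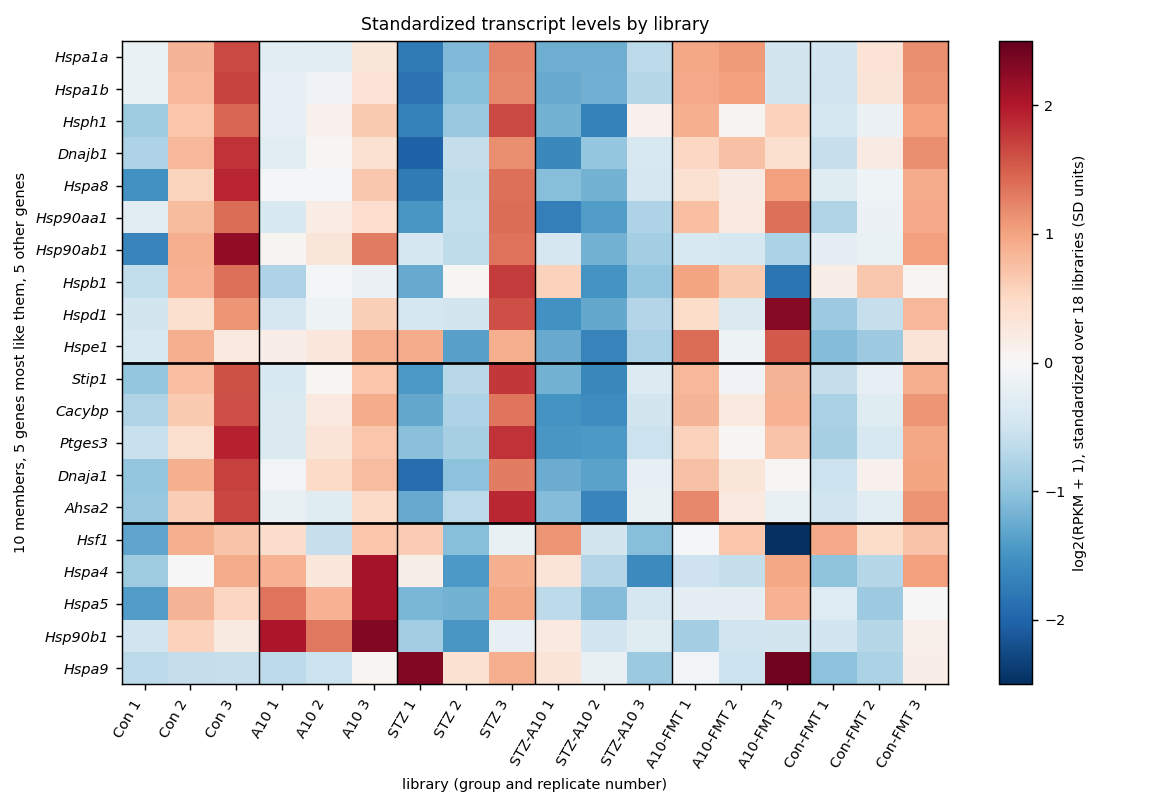
Log2(RPKM + 1) standardized over 18 libraries, red above and blue below the mean of each gene, for the 10 members, the 5 genes most like them and 5 other genes. Con replicate 3, STZ replicate 3 and Con-FMT replicate 3 are mostly red and STZ replicate 1 and the STZ-A10 libraries mostly blue over the upper 15 rows. In the lower 5 rows, r with the member mean is 0.65 for Hspa5, 0.55 for Hspa4, 0.26 for Hsp90b1, 0.15 for Hsf1 and -0.04 for Hspa9.

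Lists of other chaperone genes were set against the same mean, beside all other genes tested, whose median r was -0.09 with 0.287% above 0.8. Genes listed as further targets of HSF1 had a median r of 0.78, with 9 of 18 above 0.8, and HSP90 co-chaperones a median of 0.75, with 7 of 14 above 0.8. Chordc1 (0.95), Fkbp4 (0.94), Ahsa1 (0.92) and Bag3 (0.92), an exchange factor of HSP70, were among these, and Serpinh1, the collagen chaperone, was at 0.76. The co-chaperones were not all alike, and Fkbp5 (-0.61), Stub1 (-0.45) and Cdc37 (-0.03) were near or below 0, named here after their values were seen. Cryab and Hspb8, small heat shock proteins listed with the HSF1 targets, were at 0.27 and 0.37.

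The other lists had lower medians. Median r was 0.07 over 11 other HSP70 and HSP110 genes, 0.10 over 22 J-domain genes, 0.04 over 12 exchange factors, -0.03 over 10 other mitochondrial chaperones and proteases, 0.41 over 8 chaperonin CCT subunits, 0.04 over 6 prefoldin subunits, 0.13 over 15 chaperones of the endoplasmic reticulum (ER), 0.07 over 6 other small heat shock proteins and -0.12 over 4 heat shock factor genes. Above 0.8 were 2 J-domain genes (Dnaja1 and Dnajb4), 1 exchange factor (Bag3) and none in the rest of these lists. Hsf1 itself, at 19.1 to 32.8 RPKM, was at 0.15 and Hsf2, at 3.26 to 4.85 RPKM, at -0.12. Lists overlap, so that Bag3 and Dnaja1 count in more than 1.

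**Figure D5:**
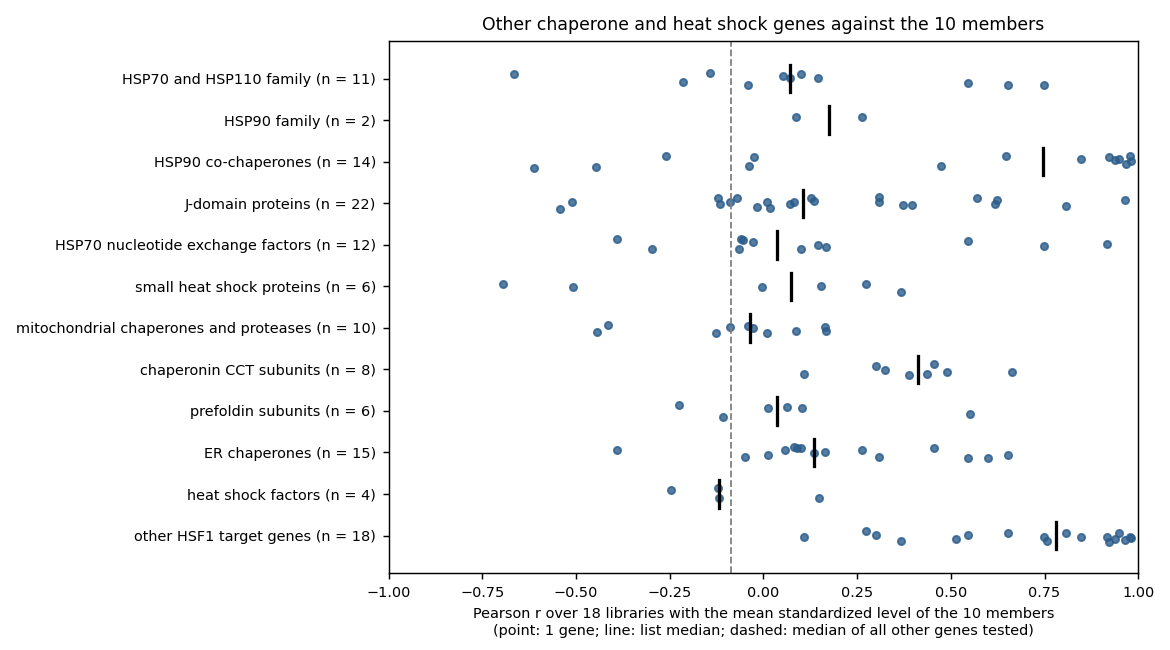
Pearson r over 18 libraries between each gene of 12 chaperone lists, members left out, and the mean standardized level of the 10 members, with the list median as a line and the median of all other genes tested (-0.09) dashed. HSP90 co-chaperones and further HSF1 targets reach 0.98, while heat shock factors stay between -0.25 and 0.15.

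In the comparisons of groups the same lists had few calls. No gene of the 12 lists passed the adjusted threshold in any of the 7 comparisons or the interaction. By the F test, which called 0.449% of all genes, 2 of 15 ER chaperones were called and no other gene of the 12 lists. At an unadjusted p under 0.05 it held 12 of these 15, against 22.6% of all genes. Hsp90b1, the HSP90 of the ER, also listed with the HSP90 family, measured 304.5 ± 50.8 RPKM in Con (SD, n = 3), 530.5 ± 82.6 in A10, 227 ± 44.6 in STZ, 277 ± 32.9 in STZ-A10, 243 ± 15.7 in A10-FMT and 263 ± 36.2 in Con-FMT, with an adjusted p of 0.0286 in limma's F test. Creld2, another ER protein of the unfolded protein response, was at 73.0 ± 17.0 RPKM in A10 (SD, n = 3) and between 28.2 and 36.4 in the means of the other groups, with an adjusted p of 0.0478 in limma's F test. Both had their highest group mean in A10, and r with the member mean was 0.26 for Hsp90b1 and 0.01 for Creld2.

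Fkbp5, a co-chaperone of HSP90 and the steroid receptors, was just short of the threshold at an adjusted p of 0.0590 in limma's F test and is named after its values were seen, as are Dnajb11 and Sdf2l1 of the ER at 0.0585 each. Fkbp5 measured 9.44 ± 0.565 RPKM in Con (SD, n = 3), 11.4 ± 0.633 in A10, 22.8 ± 9.59 in STZ, 27.6 ± 11.1 in STZ-A10, 10.6 ± 1.42 in A10-FMT and 12.02 ± 2.01 in Con-FMT. Its STZ libraries lay above all Con libraries and its STZ-A10 libraries above all A10 libraries. A further set of chaperone genes was taken for description, and in it the F test called only Hsp90b1, given above. Apart from Hsp90b1, the lowest adjusted p in limma's F test within this set was 0.176 for Cryab, at 3.86 to 16.1 RPKM, and 0.238 for Fkbp4, at 46.5 to 96.2 RPKM. Hspa5, the HSP70 of the ER, ranged from 195 to 320.3 RPKM (adjusted p 0.245 in limma), Hspa9, the HSP70 of mitochondria, from 78.3 to 120.9 (0.292), and Hspa4 from 40.0 to 55.7 (0.629). Dnaja1 had the widest fold range of this set, 36.7 to 189 RPKM (0.442), and Chordc1 ran from 29.5 to 85.5 (0.662), Stip1 from 67.1 to 172 (0.504), Ahsa1 from 75.6 to 157 (0.339), Bag3 from 7.93 to 17.98 (0.784), Serpinh1 from 15.2 to 40.8 (0.314) and Hspb8 from 3.71 to 10.5 (0.566). Adjusted p was 0.775 for Hsf1 and 0.520 for Hsf2.

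Markers of other cells were set beside the member mean as well, as descriptions over the same 18 libraries. The mean level of 11 erythroid markers had r = 0.65 with it, that of 10 hepatocyte markers 0.52 and that of 12 exocrine pancreas markers -0.52, while the globin share of the library had r = 0.24 on a log2 scale. Within groups the median r of single genes was 0.12, 0.21 and -0.42 for these lists. Values for B cell, T cell, neutrophil, proliferation, germ cell, muscle and adipocyte lists lay between -0.17 and 0.20, that for red pulp macrophages was -0.30 and that for immediate early genes 0.38. The summed hepatocyte markers were 25.2 to 302 RPKM in Con and 7.40 to 9.45 in STZ, and no marker of any list was at 0 in every library. The part of these cells in the member levels was not tested.

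Other copies of the members limit what their rows mean. Of the 50-base windows of the longest transcript, 73.2% for Hspa8, 58.5% for Hsp90aa1, 51.6% for Hspb1, 44.8% for Hspd1 and 36.1% for Hspe1 also occur in other annotated genes, so how the authors placed such reads could move these values. The share was 4.49% for Hsp90ab1, 0.407% for Dnajb1 and 0 for Hsph1, which shared no window.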

How the data were processed

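Whole spleens were measured by poly(A) RNA-seq in 18 libraries, 3 in each of 6 groups assigned from the labels. The authors deposited RPKM values, not read numbers. Per the labels, their processing notes list mm10 and Bowtie 0.12.2, the study's methods name SOAPaligner and DEGseq, and the annotation and strand of counting are not given in the sources used here. The table had 19326 lines, of which 6 with 3 repeated names were left out. DEGseq needs read numbers, so log2(RPKM + 1) of 12905 genes with at least 1 RPKM in at least 3 libraries was fitted with limma 3.58.1 (trend, R 4.3.3), 1 coefficient per group, two-sided, with Benjamini-Hochberg adjustment over all genes tested and a threshold of 0.05. Fold changes on this scale understate those of low genes. The depth is unknown: if the most frequent low value among 254 odorant, vomeronasal and taste receptor genes, 0.08 to 0.09 RPKM, were 1 read, 1 RPKM would be 11.1 to 12.5 reads per kilobase. Scripts were tested on simulated data. Members and lists were chosen with earlier results of these data known. A member was given with its test where its unadjusted p was under 0.05, members that ended a range with the fold change and SE, and genes of like pattern were the 5 with the highest Pearson r to the mean standardized log2(RPKM + 1) of the members. Alternatives were other pseudocounts, filters, scalings, array weights, a replicate block, summed copies and leaving out each library. Promoters came from RefSeq (GRCm38.p6), gene positions and transcripts from GENCODE M21.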

Additional observations from a re-analysis of the deposited data

How the results depend on the processing

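Over 27 to 29 alternatives for each comparison, the count of members past the adjusted threshold stayed at 0 apart from array weights, under which limma called 3 members in STZ against Con, 1 in A10 against Con, 1 in STZ-A10 against A10, 3 in A10-FMT against STZ, 3 in A10-FMT against Con-FMT and 9 by the F test, where 77.3% of all genes were then called (weights estimated gene by gene, from 0.112 for A10-FMT replicate 3 to 7.37 for A10-FMT replicate 1, a method chosen after seeing the data because the usual estimate did not converge). Under the weights the log2 fold change of Hspa1b was -2.60 in STZ against Con and 2.78 in A10-FMT against STZ, that of Hspe1 -0.42 in STZ-A10 against A10 and 0.46 in A10-FMT against Con-FMT, and that of Hsp90aa1 0.42 in A10-FMT against Con-FMT, and the cause was not tested. Leaving out each library in turn, Hspa1b ranged from -1.88 to 0.68 in STZ-A10 against STZ and Hspa1a from -0.35 to 1.92 in the interaction, the only fold changes among those of single members followed here that turned sign (counts of members lower or higher also moved with single libraries, as given beside each comparison): Hspa1b was 0.68 with STZ replicate 3 left out, and Hspa1a was -0.09 with Con replicate 3 left out and -0.35 with STZ replicate 1 left out. Hspa1b also ranged from -3.78 to -1.22 in STZ against Con, 0.75 to 3.31 in A10-FMT against STZ and 0.42 to 2.98 in Con-FMT against STZ, with the ends of each range reached when STZ replicate 3 or STZ replicate 1 was left out. Hspa1a in A10 against Con ranged from -2.02 without Con replicate 1 to -0.64 without Con replicate 3. The 5 relations between members kept their direction and side of the threshold under all 21 alternatives each. With the replicate number as a block the count of members called was 0 in every comparison, and no call of a member changed. Over all genes tested, same-numbered libraries of different groups deviated together little (median r 0.044 against -0.009 for libraries of other numbers, from -0.385 to 0.571 in 45 pairs, 14 over 0.1, and 9 of 18 libraries correlated best with their own number), so the number was not taken to pair them, although for 7 of the 10 members the library numbered 3 was highest in 5 or 6 of the 6 groups, against 3.25% of all genes. At the study's threshold, an adjusted p of at most 0.001 and a log2 fold change of at least 1 in size, 0 members were called.

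With 3 libraries a group and the wide spread of Hspa1a and Hspa1b, the SE of a Hspa1b difference was 1.10 on the log2 scale, and a difference of -2.29 between STZ and Con was not called at this precision. The depth is unknown, so counting error is not set beside the values. The study's methods name SOAPaligner, with a setting for reads that match several places, while the processing notes in the labels list Bowtie, and how such reads were counted for each gene is not given in the sources used here.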

Other observations

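None of the 15 chaperones of the endoplasmic reticulum passed the adjusted threshold in limma in A10 against Con or in STZ-A10 against A10, which share the A10 libraries. In A10 against Con 10 of the 15 were higher at an unadjusted p under 0.05, against 3.56% of all genes, and 10 were higher without overlap between the groups, against 11.7%, with a median log2 fold change of 0.40 against 0.05 over all genes. In STZ-A10 against A10 14 of the 15 were lower at that level, against 6.42% of all genes, and 12 without overlap, against 14.9%, with a median of -0.49 against -0.03 over all genes. Hspa5, the ER member of the HSP70 family, measured 288, 269 and 320.3 RPKM in A10, 195, 269 and 257 in Con and 217, 204 and 224 in STZ-A10, so that the lowest A10 and the highest Con library were both near 269.

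The library numbered 3 was often the highest of its group. It was highest in 5 or 6 of the 6 groups for 7 of the 10 members, against 3.25% of all genes tested, and in all 6 groups for Hspa8, Hsp90aa1 and Hspd1, against 0.643% of all genes. The library numbered 1 was highest in 5 or 6 groups for 2.0% of all genes and that numbered 2 for 1.13%. What the number marks is not given in the sources used here.

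Some genes had a negative r with the member mean, and the 2 named here were chosen after their values were seen. Cirbp, which encodes a cold-inducible RNA-binding protein, had r = -0.75 with the member mean over 18 libraries, place 24 from the bottom of 9352 genes, and Rbm3, another cold-inducible RNA-binding protein, r = -0.63, place 155. Cirbp RPKM was 121, 58.1 and 23.5 in STZ, where Hspa1b was 1.30, 4.68 and 79.1. It was 41.3, 27.7 and 27.2 in Con, 51.9, 44.2 and 38.7 in A10 and 86.2, 63.7 and 47.4 in STZ-A10. In each of these groups Hspa1b had the inverse order of libraries. In A10-FMT, Cirbp (27.9, 37.0 and 12.1) had the same order of libraries as Hspa1b (58.4, 65.2 and 10.7), and in Con-FMT Cirbp was nearly level (33.7, 35.1 and 33.1) while Rbm3 (338, 387 and 423) had the order of Hspa1b. The inverse order to Hspa1b was therefore not shared by every group. The member mean itself was 0.69, 0.31 and 0.37 in A10-FMT, an order that Cirbp did not have. With group means removed, r with the member mean was -0.68 for Cirbp and -0.75 for Rbm3.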
